A study of Arabidopsis thaliana with 12 samples.

Results

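The CBF regulon of Arabidopsis thaliana was followed through 10 genes chosen by locus: the transcription factor genes CBF1 (AT4G25490), CBF2 (AT4G25470) and CBF3 (AT4G25480), and 7 cold-regulated (COR) genes that they switch on. These effectors are COR15A (AT2G42540), COR15B (AT2G42530), KIN1 (AT5G15960), KIN2 (AT5G15970), RD29A (AT5G52310), COR47 (AT1G20440) and LTI30 (AT3G50970). Of 19710 genes with values in either comparison, the 7 effectors had values in the 6x_pfd comparison and 6 of them, without COR15B, in the pfd4 comparison. Expression of CBF1, CBF2 and CBF3 was not analysed here, so their upstream sequences are described, and the expression results are those of the effectors and other genes of the pathway. All samples were whole Col-0 seedlings grown in vitro under conditions the labels call standard, with no cold treatment described. Mutants labelled pfd4 were compared with WT (wild type) at 14 days, under the label LD and collected at ZT1, and the titles of both groups carry the word mock. Mutants labelled 6x_pfd were compared with their own WT at 7 days under the label LL. Each group had 3 libraries, and the labels name no alleles. Prefoldin is a chaperone complex that passes newly made tubulin and actin to the chaperonin CCT.

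CBF proteins are AP2-domain transcription factors whose genes are switched on within minutes of a fall in temperature. They bind the C-repeat or dehydration-responsive element (CRT/DRE), with the core CCGAC, in the promoters of COR genes, whose products protect membranes and proteins during freezing. Many COR promoters also hold abscisic acid response elements (ABRE, core ACGTG), bound by bZIP factors of the ABF family, so the same genes answer to drought and abscisic acid without cold.

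The upstream regions of the 7 effectors held both elements. In the 500 bases of genome before each start codon, CCGAC was found on either strand in 7 of 7 effectors, at 13 places, against 23.3% of the 27443 windows of all coding genes. ACGTG was found in 7 of 7 effectors, against 34.8% of all windows, and windows with both made up 9.06% of the total. The effectors were chosen as genes that CBF proteins switch on, so these shares describe the chosen set and test nothing. An ACGTG and its reverse complement CACGT on one shared core were counted as 1 place. The windows of CBF1, CBF2 and CBF3 held no CCGAC and 2, 1 and 1 places with ACGTG. A match describes letters in a window and is not a measured binding site. Each CCGAC match of an effector is given because it is the letters that CBF proteins are known to read, on the strand of the gene, with TAIR10.1 coordinates and RefSeq gene models, and with the core, or its reverse complement GTCGG, in capitals.
COR15A, chr2:17712395-17712419, minus strand, 443 bases upstream: aacttgttggCCGACatacatttgt
COR15A, chr2:17712218-17712242, minus strand, 266 bases upstream: aatttcatggCCGACctgctttttt
COR15B, chr2:17710124-17710148, minus strand, 265 bases upstream: aacttgatggCCGACctcttttttc
KIN1, chr5:5209804-5209828, plus strand, 178 bases upstream: taaatagctaCCGACataaggcaaa
KIN2, chr5:5211771-5211795, plus strand, 185 bases upstream: taaaaagctaCCGACataaggcaaa
RD29A, chr5:21240567-21240591, plus strand, 352 bases upstream: tagacatggaCCGACtactaataat
RD29A, chr5:21240617-21240641, plus strand, 302 bases upstream: aaatatcataCCGACatcagtttga
RD29A, chr5:21240674-21240698, plus strand, 245 bases upstream: agatatactaCCGACatgagttcca
RD29A, chr5:21240711-21240735, plus strand, 208 bases upstream: aaagatcaagCCGACacagacacgc
LTI30, chr3:18940532-18940556, plus strand, 283 bases upstream: ttaaaattacGTCGGtcgctaacca
LTI30, chr3:18940555-18940579, plus strand, 260 bases upstream: cactactacaCCGACgtcttacttg
LTI30, chr3:18940624-18940648, plus strand, 191 bases upstream: cttttacgatGTCGGccaacacgta
COR47, chr1:7085918-7085942, minus strand, 268 bases upstream: tattcatctaCCGACttcaagaaat
The copies of a tandem pair kept the core at nearly the same distance: 266 and 265 bases for COR15A and COR15B, and 178 and 185 bases for KIN1 and KIN2. RD29A, with 4 matches, and LTI30, with 3, held the most. Of the 13 matches, 6 lay inside the annotated transcripts, whose RefSeq 5′ ends reach 182 to 1209 bases before the start codon in these 7 genes. For COR15B (560 bases) and COR47 (1209 bases) the whole window lay within the annotated transcript region.

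Among effectors, KIN2 held 4 places with ACGTG, COR15A and KIN1 3 each, COR15B 2, and RD29A, COR47 and LTI30 1 each. At least 3 such places occurred in 2.43% of all windows. The 10 matches of effectors that read ACGTG on the gene strand are given, because these are the letters that bZIP factors of the ABF family are known to read. Of these matches, only that of COR15A at 391 bases lay upstream of the annotated transcripts, and the others lay inside them. COR47 and LTI30 held the core on the opposite strand.
COR15A, chr2:17712343-17712367, minus strand, 391 bases upstream: caataaatacACGTGaaggaaatga
COR15A, chr2:17712167-17712191, minus strand, 215 bases upstream: atatgattacACGTGgcctgaaaag
COR15A, chr2:17712106-17712130, minus strand, 154 bases upstream: tactcttaatACGTGtaattttgga
COR15B, chr2:17710001-17710025, minus strand, 142 bases upstream: tagcactcacACGTGtagttttgga
KIN1, chr5:5209772-5209796, plus strand, 210 bases upstream: ctaaaacgacACGTGaagtcttgat
KIN1, chr5:5209845-5209869, plus strand, 137 bases upstream: aatgtaatccACGTGgttttagatt
KIN2, chr5:5211739-5211763, plus strand, 217 bases upstream: ctaaaacgacACGTGatgtcttgat
KIN2, chr5:5211812-5211836, plus strand, 144 bases upstream: aacgtaatccACGTGgtttcagatt
KIN2, chr5:5211829-5211853, plus strand, 127 bases upstream: ttcagattacACGTGgcaccacaca
RD29A, chr5:21240776-21240800, plus strand, 143 bases upstream: gacgcttcatACGTGtccctttatc

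**Figure D1:**
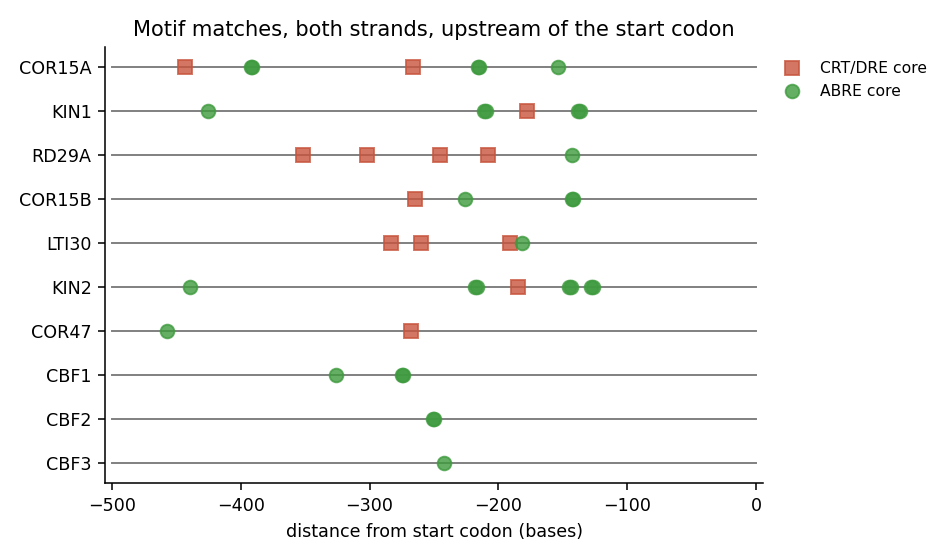
Positions of the CRT/DRE core (squares) and the ABRE core (circles) on both strands in the 500 bases before the start codon of the 10 genes. All 7 effectors hold both elements, and the 3 CBF genes hold the ABRE core without the CRT/DRE core.

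Levels in each group were computed from the mean normalized count and fold change of the authors' deposited table, and are called implied levels because values per library were not analysed here. At 7 days in WT, the implied normalized count per kilobase of transcript was highest for COR47 (5393) and KIN2 (2994). LTI30 followed at 1482, then RD29A at 639, KIN1 at 599, COR15A at 107 and COR15B at 81.9. In 6x_pfd the order per kilobase was KIN2 (10339), COR47 (7249), LTI30 (5122), KIN1 (4722), RD29A (3798), COR15A (2447) and COR15B (406). KIN2 thus stood above COR47 in the mutant and below it in WT. No spread of the levels themselves is known, so the order is a description. It also depends on the length used: per kilobase of coding sequence KIN1 (2472) stood above RD29A (798) in WT at 7 days. Scaled to the summed level of all genes in the table, the lowest implied WT level was 2.46 per kilobase and 1000000 counts (COR15B), above the minimum of 1 RPKM that the authors' file names give.

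At 14 days in WT the order per kilobase was COR47 (3226), KIN2 (2192), LTI30 (672), RD29A (294), KIN1 (202) and COR15A (121). In pfd4 the levels were 2688 for COR47, 2612 for KIN2, 665 for LTI30, 250 for KIN1, 198 for RD29A and 158 for COR15A. KIN1 and RD29A exchanged places between WT and pfd4 on this scale. Per kilobase of coding sequence KIN1 stood above RD29A in both groups, at 833 and 367 in WT and 1031 and 247 in pfd4. The exchange thus depends on the length used. The tables of the 2 experiments were normalized separately, and age and light differ between them, so the WT levels are set side by side without a test.

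**Figure D2:**
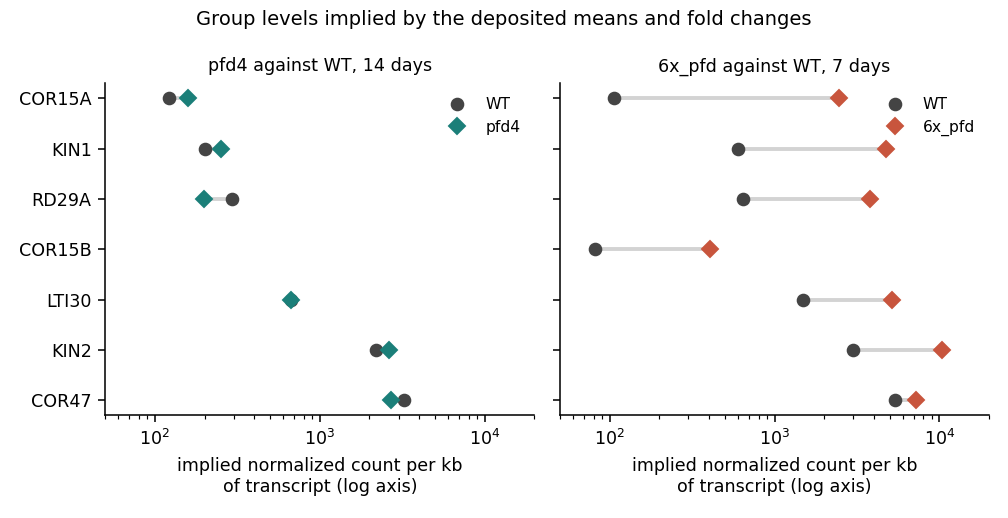
Implied normalized counts per kilobase of transcript (log axis) for each effector in WT (circles) and mutant (diamonds), with pfd4 at 14 days on the left and 6x_pfd at 7 days on the right. For each gene with values in both, the circle and diamond lie closer together on the left than on the right. On the right COR15A goes from 107 to 2447 and COR47 from 5393 to 7249.

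PFD4 was at -1.99 ± 0.17 in pfd4, and 5 of the 6 prefoldin genes fell in 6x_pfd, all but PFD6 (-0.16 ± 0.10), per the authors' deposited table. For this and the marker genes below, the shares over all genes were 16.9% higher and 16.8% lower in 6x_pfd. In pfd4 they were 3.94% and 3.81%. Of 4 root markers, 3 were measured in pfd4 and 4 in 6x_pfd, and all 4 shoot markers were measured in both. In pfd4 the root marker CASP2 fell (-0.66 ± 0.16), and CASP1 (-0.39 ± 0.14) and PHT1;1 (-0.27 ± 0.42) did not pass, per the authors' deposited table. In 6x_pfd PHT1;1 fell (-0.83 ± 0.09), COBL9 rose (0.52 ± 0.17), and CASP1 (-0.13 ± 0.16) and CASP2 (-0.04 ± 0.14) did not pass, per the authors' deposited table. The summed root level went from 68.5 to 54.2 per 1000000 counts in pfd4 and from 175 to 147 in 6x_pfd. In 6x_pfd the summed implied level of 4 seed markers (CRU1, EM1, EM6 and OLEO1) went from 22.3 to 215 per 1000000 counts, and all 4 rose, while SESA1 was not analysed here. EM1 had an implied WT level of 0.401 per kilobase and 1000000 counts, under the authors' minimum of 1, so its place in the table may rest on 6x_pfd. Of the 4 shoot markers, LHCB1.3 (-1.03 ± 0.10) and LHCB2.1 (-1.76 ± 0.16) fell there, and RBCS1A (0.16 ± 0.16) and RCA (-0.18 ± 0.11) did not pass, per the authors' deposited table. The summed shoot level went from 37411 to 29769 per 1000000 counts, with LHCB1.3 going from 15236 to 7864 and RBCS1A from 9516 to 11206. In pfd4 the seed sum went from 93.2 to 76.1 per 1000000 counts, and none of 3 passed. The part of these shifts in the rise of the COR genes was not tested. At the 3′ end COR15B overlaps AT2G42520 on the opposite strand by 468 bases, and AT2G42520 did not pass in 6x_pfd (0.13 ± 0.08, adjusted p = 0.209) per the authors' deposited table. The sources used here do not say whether reads were counted by strand.

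In 6x_pfd seedlings all 7 effectors with values rose, by 1.34-fold to 23.0-fold, past an FDR (false discovery rate) threshold of 0.05. Over all 19380 genes tested there, 16.9% rose and 33.6% changed in either direction. With a log2 fold change of at least 1 required as well, 6 of the 7 rose, without COR47, against 3.79% of all genes. The median log2 fold change of the 7 effectors was 2.31, and that of all genes was 0.00. Summed over the 7 genes, the implied level went from 562 to 1524 per 1000000 counts. COR47 made up 67% of that sum in WT and 35% in 6x_pfd, and RD29A 9.11% and 21.1%. In bulk seedlings, more cells expressing a gene and more transcript per cell cannot be told apart.

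COR15A, which encodes a chloroplast stroma protein that stabilises membranes on freezing, had the largest change. Its implied level went from 164 normalized counts in WT to 3779 in 6x_pfd, a 23.0-fold rise with a 95% interval of 11.8 to 44.7. The log2 fold change per the authors' deposited table was 4.52 ± 0.49 (SE; adjusted p = 1.21e-18), and 30 of 19397 genes had a larger one. Its close homologue COR15B went from 130 to 643, or 4.96-fold (3.61 to 6.802). The log2 fold change of COR15B was 2.31 ± 0.23 (adjusted p = 1.98e-21) per the authors' deposited table. COR15A supplied 55.9% of the counts of this pair in WT and 85.5% in 6x_pfd.

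KIN1 and KIN2 encode near-identical small hydrophilic proteins. KIN1 went from an implied 497 to 3915 normalized counts, a 7.88-fold rise with a 95% interval of 6.71 to 9.26. In the authors' deposited table KIN1 stood at 2.98 ± 0.12 (adjusted p = 2.29e-135), with the 2nd smallest p of all genes. KIN2 started higher, at 2246, and reached 7755, or 3.45-fold (2.76 to 4.33). Its log2 fold change was 1.79 ± 0.17 (adjusted p = 3.75e-25) per the authors' deposited table. KIN1 thus went from 18.1% to 33.5% of the counts of the pair, and stood at 9.24% and 9.57% in WT and pfd4 at 14 days. The difference in response within a pair was not tested, since both copies come from the same libraries. The KIN1 and KIN2 coding sequences were identical at 191 of 201 bases, and 10 of the 780 stretches of 50 bases in the KIN1 transcript were also in that of KIN2. No such stretch was shared by COR15A and COR15B, whose coding sequences had 82.8% identity.

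RD29A, a hydrophilic protein gene long used as a reporter of cold and drought signalling, went from 1703 to 10115 normalized counts, or 5.94-fold (4.84 to 7.28). Its log2 fold change was 2.57 ± 0.15 (adjusted p = 4.78e-63) per the authors' deposited table. LTI30 and COR47 are dehydrins, hydrophilic proteins that bind membranes in drying or freezing cells. LTI30 went from 1436 to 4963, or 3.46-fold (3.003 to 3.98), at 1.79 ± 0.10 (adjusted p = 2.75e-64) per the authors' deposited table. COR47, the most abundant effector in WT, went from 12511 to 16817, or 1.34-fold (1.18 to 1.53). The log2 fold change of COR47 was 0.43 ± 0.09 (adjusted p = 5.24e-05) per the authors' deposited table. With an empirical null, which divides the test scores by their spread over all genes, COR47 no longer passed (adjusted p = 0.422) and the other 6 did.

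Spread between libraries was solved from the SE and the implied counts, as a value shared by both groups, and was not observed per library. This implied spread was 41.2% (coefficient of variation) for COR15A in the 6x_pfd comparison. It was 18.6% for COR15B, 14.0% for KIN2, 12.6% for RD29A, 9.48% for KIN1, 8.52% for LTI30 and 7.997% for COR47, against a median over all genes of 0.093 as a fraction. COR15A thus had the largest change and the least precise one, with an SE 7.39 times the counting error. The other effectors ranged from 2.91 to 9.63 times their counting error, so the implied spread between libraries added more to each SE than counting error did.

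In pfd4 seedlings at 14 days 1 of 6 effectors passed the threshold, RD29A, which fell. Over all genes 7.75% passed in either direction and 3.81% fell. No effector rose there, against 3.94% of all genes. RD29A went from an implied 782 to 526 normalized counts. The authors' deposited table listed it at -0.57 ± 0.17 on the log2 scale (adjusted p = 0.0117). This call was lost at an FDR of 0.01 and with the empirical null (adjusted p = 0.264). The other 5 did not pass, with adjusted p from 0.122 to 0.979. In the authors' deposited table, COR15A was at 0.38 ± 0.30, KIN1 at 0.31 ± 0.22, KIN2 at 0.25 ± 0.11, COR47 at -0.26 ± 0.11 and LTI30 at -0.02 ± 0.16. The 95% intervals of these 5 genes ran from -0.47 at the lowest (COR47) to 0.97 at the highest (COR15A). The median of the 6 effectors was 0.12, and that of all genes was 0.00.

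**Figure D3:**
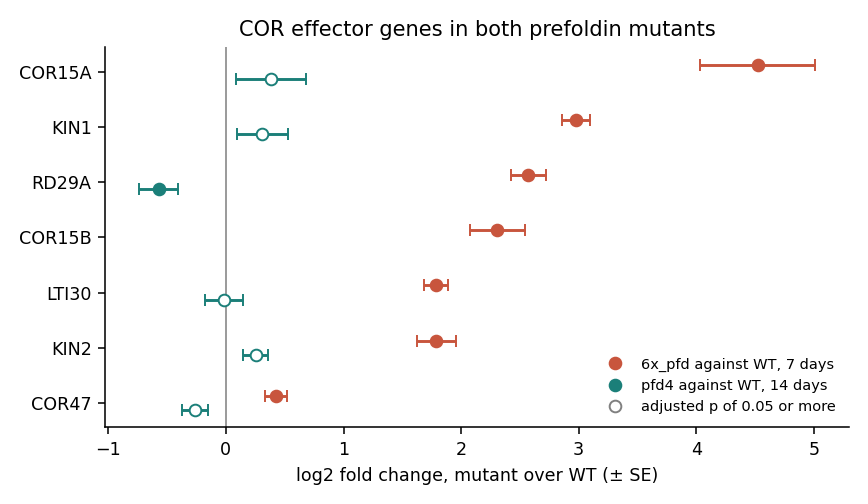
Log2 fold changes with SE of the effectors in 6x_pfd (upper marker of each gene) and pfd4 (lower marker), each against the WT of its own experiment with 3 libraries per group, and open markers for an adjusted p of 0.05 or more. The 7 values in 6x_pfd lie between 0.43 and 4.52, and the 6 in pfd4 between -0.57 and 0.38.

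The effects of the mutants were compared directly, as the difference of the log2 fold changes with a two-sided Wald test and Benjamini-Hochberg adjustment over 18035 genes. The comparisons share no libraries, and genotype, age and light regime cannot be told apart in this difference. All 6 effectors with values in both were higher in 6x_pfd, where 11.8% of all genes were and 23.8% differed in either direction. The difference was 4.14 ± 0.57 for COR15A (adjusted p = 3.43e-11), 3.14 ± 0.22 for RD29A (adjusted p = 7.61e-42) and 2.67 ± 0.25 for KIN1 (adjusted p = 1.75e-24). It was 1.80 ± 0.19 for LTI30 (adjusted p = 1.02e-18), 1.53 ± 0.20 for KIN2 (adjusted p = 6.93e-13) and 0.69 ± 0.14 for COR47 (adjusted p = 2.55e-05). With the empirical null COR47 did not pass (adjusted p = 0.229). For RD29A, 57 of 18053 genes had a larger difference.

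**Figure D4:**
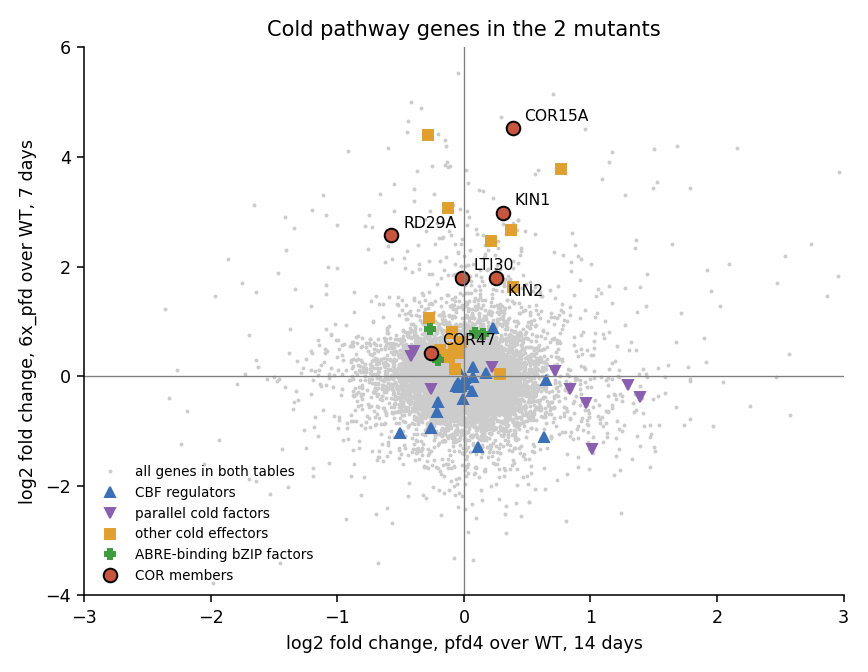
Log2 fold change in pfd4 (x axis) against that in 6x_pfd (y axis) for the 18053 genes in both tables (grey), with the effectors and the other pathway genes marked, and 6 genes beyond the axes not drawn. The effectors lie between 0.43 and 4.52 on the y axis and between -0.57 and 0.38 on the x axis. The parallel cold factors lie between -0.42 and 1.39 on the x axis and between -1.32 and 0.46 on the y axis.

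Of 20 other cold effector genes listed, 15 rose in 6x_pfd, against 16.9% of all genes, and none fell, with a median log2 fold change of 0.80. GOLS3 had an implied WT level of 0.686 per kilobase and 1000000 counts, under the authors' minimum of 1, so its place in the table may rest on 6x_pfd. Among the other 19 genes, 14 rose. RD29B, the neighbour of RD29A and a classic abscisic acid response gene, was at 4.41 ± 0.42 (adjusted p = 5.80e-24) per the authors' deposited table, from an implied 696 to 14764 normalized counts. The early light-induced genes ELIP2 (3.06 ± 0.16) and ELIP1 (2.66 ± 0.17), the alcohol dehydrogenase gene ADH1 (2.47 ± 0.14) and the dehydrin gene ERD10 (1.07 ± 0.09) had the list's smallest p-values per the authors' deposited table. The galactinol synthase gene GOLS3, which serves raffinose synthesis in the cold, was at 2.30 ± 0.24 and COR413-PM1, for a plasma membrane protein, at 0.80 ± 0.09 per the authors' deposited table. COR413IM2, CSP3, FAD8, BAM3 and COR28 (AT4G33980) did not pass, with values from 0.04 to 0.56 per the authors' deposited table. In pfd4, where 7.75% of all genes passed, 1 of 17 such genes did, ERD10, at -0.28 ± 0.09 (adjusted p = 0.0255) per the authors' deposited table.

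Of 23 regulators of CBF expression measured in 6x_pfd, 2 rose and 9 fell, against 16.9% and 16.8% of all genes, and the others did not pass. ICE2, which encodes an activator of CBF genes, was at -0.42 ± 0.08 and its partner ICE1 at -0.19 ± 0.08, the latter short of the threshold (adjusted p = 0.0513), per the authors' deposited table. CAMTA1, a calmodulin-binding activator, was at -0.27 ± 0.07, and CAMTA2 (-0.04 ± 0.07) and CAMTA3 (0.05 ± 0.11) did not pass per the authors' deposited table. The morning clock genes CCA1 (-0.95 ± 0.10) and LHY (-0.66 ± 0.11), whose products activate CBF genes, fell per the authors' deposited table. PRR7 (-1.29 ± 0.18) and PRR9 (-1.03 ± 0.25), clock repressors of CBF genes, fell as well per the authors' deposited table. PIF4 (-1.11 ± 0.14) and PIF7 (-0.47 ± 0.13), repressors of CBF genes in warm long days, fell, and their relative PIF3 rose (0.88 ± 0.11) per the authors' deposited table. OST1, the abscisic acid- and cold-activated kinase that stabilises ICE1, rose, with the authors' deposited table giving 0.41 ± 0.08. In pfd4, where 3.94% of all genes rose, 2 of 22 did, PIF4 (0.63 ± 0.11) and MPK3 (0.65 ± 0.14), and PRR9 fell (-0.50 ± 0.13) per the authors' deposited table.

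Of 5 ABRE-binding bZIP factors listed, a chosen set and not the whole class, 5 rose in 6x_pfd, against 16.9% of all genes. ABI5 is one of them, with an implied WT level of 0.849 per kilobase and 1000000 counts, under the authors' minimum of 1, so its place in the table may rest on 6x_pfd. The other 4 had WT levels of at least 1. ABF2 was at 0.85 ± 0.11, ABF4 at 0.80 ± 0.11, ABF3 at 0.76 ± 0.11 and ABF1 at 0.29 ± 0.10 per the authors' deposited table. ABI5, which acts in seeds and young seedlings, was at 2.25 ± 0.26 (adjusted p = 3.15e-16) per the authors' deposited table. None of 4 passed in pfd4, where 7.75% of all genes did and ABI5 was not analysed here. Of 7 relatives of the CBF factors listed, 3 were measured in 6x_pfd and 2 of them rose, against 16.9% of all genes. These were DREB2A (1.37 ± 0.24) and DREB2B (0.86 ± 0.22), known for drought and heat responses, per the authors' deposited table. CBF4, DDF1, DDF2 and DREB2C were not analysed here. RAP2.1, a CBF-induced repressor with the same AP2 domain, did not pass in 6x_pfd (0.23 ± 0.22, adjusted p = 0.469) or in pfd4 (0.25 ± 0.23, adjusted p = 0.625) per the authors' deposited table.

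Of 10 transcription factor genes that cold induces in parallel with the CBF genes, 5 rose in pfd4, against 3.94% of all genes, and none fell. MYB73 was at 1.39 ± 0.17 (adjusted p = 6.17e-13), MYB44 at 0.84 ± 0.13 and CZF1 at 0.72 ± 0.14 per the authors' deposited table. ZAT10 (1.297 ± 0.28) and ERF5 (0.96 ± 0.21) also rose per the authors' deposited table. In 6x_pfd, where 16.9% of all genes rose, 1 of the 9 with an adjusted p did, HSFC1 (0.46 ± 0.14), and none fell. The SE in 6x_pfd was above 0.4 for 7 of these 10 genes, against 3.29% of all genes, a limit chosen after the values were seen. It reached 1.46 for ZAT10, which had no adjusted p, and 1.07 for ERF5 per the authors' deposited table. Which libraries of the 6x_pfd experiment set these errors was not analysed here. Among the effectors, only COR15A had an SE above 0.4 there.

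**Figure D5:**
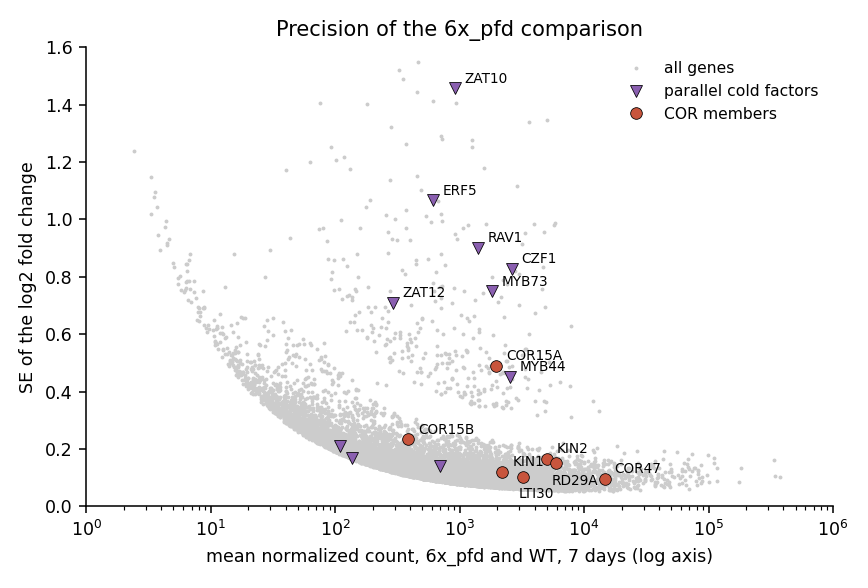
SE of the log2 fold change in the 6x_pfd comparison against the mean normalized count (log axis), with 6 of 19397 genes beyond the axes not drawn. COR15A stands at 0.49 beside MYB44, the other 6 effectors lie between 0.09 and 0.23, and ZAT10 reaches 1.46.

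Genes with the same letters upstream were looked at without the members, as a description. Over all genes in 6x_pfd, 16.9% rose and 16.8% fell. Among genes with CCGAC and at least 2 places with ACGTG in the window, 32.4% of 630 rose and 12.9% fell in 6x_pfd, with a median log2 fold change of 0.12. Genes with CCGAC and at least 1 such place, which include these, rose in 23% of 1909 cases and fell in 14%, with a median of 0.05. Genes with CCGAC and no ACGTG rose in 14.8% of cases and fell in 13.5%. Genes with ACGTG and no CCGAC rose in 21.9% and fell in 17.8%, and genes with neither rose in 13.5% and fell in 18.4%. In pfd4, where 3.94% of all genes rose, the share that rose was 6.28% with CCGAC and at least 2 places with ACGTG, and 4.62% with CCGAC and at least 1. It was 5.77% with ACGTG only, 2.74% with CCGAC only and 3.29% with neither.

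The 5 genes whose pair of log2 fold changes lay nearest to the median pair of the 6 effectors, 0.12 in pfd4 and 2.18 in 6x_pfd, were taken by Euclidean distance over the 2 comparisons. AT1G43910 was at 0.16 ± 0.23 and 2.18 ± 0.15, and AT4G02360 at 0.17 ± 0.44 and 2.22 ± 0.17, per the authors' deposited table. QQS was at 0.00 ± 0.22 and 2.20 ± 0.27, and the homeobox gene HB-7 at 0.25 ± 0.16 and 2.20 ± 0.13, per the authors' deposited table. The chloroplast-encoded ATCG00790 was at 0.16 ± 0.18 and 2.17 ± 0.57 per the authors' deposited table. Their distances ranged from 0.038 to 0.13.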

How the data were processed

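Per the labels' protocols, stranded mRNA libraries were made from whole seedlings, in 4 groups of 3 samples. The design text calls them biological, and no label says that they came from separate cultures, so p-values measure the spread between these samples. Cutadapt, HISAT2, HTSeq and DESeq2 were used by the authors with TAIR10, per the submitters' processing notes, without versions or order. The authors' deposited tables give, per the file headers, a mean normalized count (a signal averaged over the libraries of a comparison), a log2 fold change with its SE, a Wald score, its p-value and the p-value after adjustment. Genes were filtered on a minimum RPKM, per the file names. No values per library were analysed, so the planned count model was replaced by the authors' deposited DESeq2 results, and depth per library is unknown. The summed mean normalized counts were 29221246 (pfd4) and 32374115 (6x_pfd).

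Computed from the tables, with Python 3.11.15, numpy 2.4.6, pandas 2.3.3 and scipy 1.17.1, were group levels (from the mean and fold change, assuming equal groups), 95% intervals (log2 fold change with its SE under a normal distribution), and the Wald test of the difference between mutants on the deposited log2 fold changes. The code of that test was checked on simulated effects. Spread between libraries was solved from the SE after subtracting counting error. Adjusted p-values of 17 genes in 6x_pfd and 3 in pfd4 were missing and stayed so. Upstream windows and transcript lengths came from TAIR10.1 with RefSeq models, a release of the same assembly. The window before the start codon was chosen after the annotation was seen, and the deposited tables hold no coordinates. Members and lists were chosen with earlier results of these data known. Named genes are the members, the list genes with the smallest p per comparison or at the extremes of a list, prefoldin genes and the 5 nearest genes. Others, such as GOLS3, COR413-PM1, CAMTA2, CAMTA3, ICE1, OST1, PIF3, PIF7, PRR9, RAP2.1 and list genes that did not pass, were named after their values were seen. Counts without list genes under 1 per kilobase and 1000000 counts in WT were added after the data were seen. Other alternatives were an FDR of 0.01, a log2 fold change of 1 or more in size, centring on the median or on equal totals, an empirical null, and a mean normalized count of at least 50.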

Additional observations from a re-analysis of the deposited data

Results flagged for a closer look

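The effects of the mutants differed by the Wald test of the difference for each of the 6 effectors with values in both comparisons. The log2 fold change in 6x_pfd minus that in pfd4 was 4.14 for COR15A, 3.14 for RD29A, 2.67 for KIN1, 1.80 for LTI30, 1.53 for KIN2 and 0.69 for COR47. Among the other pathway genes, PIF4 and ERD10 passed the threshold in opposite directions. PIF4 rose in pfd4 and fell in 6x_pfd, with a difference of -1.75 ± 0.18 (adjusted p = 7.03e-21). ERD10 fell in pfd4 and rose in 6x_pfd, with a difference of 1.34 ± 0.13 (adjusted p = 5.35e-24). RD29A was the effector with calls in opposite directions. Genotype, age and light regime cannot be told apart in these differences.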

How the results depend on the processing

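The count of 7 effectors higher in 6x_pfd held at an FDR of 0.01, under both centrings and with a mean normalized count of at least 50, and was 6 with the empirical null and with a log2 fold change of 1 or more in size, where COR47 did not pass. The same settings gave 6, and 5 without COR47, for the difference between mutants. The count of 1 lower in pfd4, RD29A, became 0 at an FDR of 0.01, at a log2 fold change of 1 or more in size and with the empirical null. Only the centrings alter the log2 fold changes, and no effector changed direction under them. The other settings could not change a direction. Over all genes, the 1423 calls in pfd4 became 835 at an FDR of 0.01, 198 at a log2 fold change of 1 or more in size and 352 with the empirical null. The 6519 calls in 6x_pfd became 1186 with the fold change limit and 933 with the empirical null, and the 4299 calls of the difference 1071 and 475. The empirical null scales by the spread of scores over all genes, many of them changed. Centring on equal totals raised the share of higher genes among calls from 50.2% to 66.1% in 6x_pfd and from 49.6% to 62.2% in the difference. On the given strand alone, 13.4% of all windows held CCGAC and 23.2% ACGTG. No paired analysis was possible because values per library were not analysed here, and leaving out single replicates was not run for the same reason.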
